A study of Vitis vinifera with 171 samples.

Results

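Berries at mid-ripening in 2007 were compared with berries at mid-ripening in 2008, vineyard by vineyard. The arrays were chosen by their labels as all mid-ripening arrays of the vineyards AM, CS, MN and PSP in those years. They are 24 of the 171 arrays of the series, 3 for each of the 4 vineyards in each year, and 12 per year. The series followed Vitis vinifera cv Corvina clone 48, a red wine grape, in vineyards of the Verona region at veraison (the onset of ripening), mid-ripening and harvest. The study asked how climate and site change the berry transcriptome, and it set 2007 apart for its exceptionally warm spring. All groups share the cultivar, the clone and the tissue. The vineyards differ in site and in farming, such as altitude, soil, training system and rootstock, and each was set against itself. Each sample pooled berries from clusters along vine rows, and RNA came from pericarp, that is, whole berries without seeds. Collection dates were moved between years toward the same phenological phase, and the study judged the berries of a stage to be uniformly ripe. Its own measures at mid-ripening, however, gave lower sugar (°Brix) and lower total acidity in 2007 than in 2008 in each of these vineyards.

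Between veraison and harvest, grape berries soften, accumulate sugar and anthocyanins, lose organic acids and chlorophyll, and shut down genes of young green fruit. Late in ripening the skin and flesh accumulate defense transcripts, among them pathogenesis-related (PR) proteins such as PR1, the beta-1,3-glucanases and chitinases that cut fungal walls, and osmotins of the thaumatin family. Stilbene synthases make resveratrol, and germacrene D synthases make a volatile sesquiterpene. Cytokinin dehydrogenases degrade cytokinins, and CYP90B1 (DWF4) hydroxylates brassinosteroid precursors.

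Levels are log2 of the mean fluorescence intensity of a gene's probes, averaged over the 3 arrays of a vineyard and year, so a difference of 1 is a 2-fold difference. Array background was taken as the 95th percentile of the random control probes. It lay at 7.18 to 7.70 (log2) on the arrays of AM in 2007, 7.39 to 8.55 in CS, 6.39 to 6.74 in MN and 5.80 to 6.18 in PSP, and at 6.33 to 7.49 on the arrays of 2008. The share of the 29,542 probe sets above it was 58.6% to 89.0% in 2007 and 69.9% to 80.0% in 2008. None of the 9 slides held arrays of both years, so slide and year cannot be told apart. The 3 arrays of a vineyard and year are biological replicates of one vineyard, and p-values over them say nothing about other vineyards. In some named genes 1 array stood apart from the other 2 of its triplicate, namely replicate A of MN in 2008 for defense genes and replicate A of AM in 2008 for genes that differ between years at veraison. Values without them are given beside the results they touch, and both were chosen after the values were seen. Among 6 named genes annotated as seed storage or oil body proteins, markers of seed tissue, 5 had a lower and 1 a higher mean in 2007 (median difference -0.28). Legumin (VIT_12s0034g01950), a seed storage protein, was above background on 11 arrays of 2007 and 12 of 2008 although the tissue was seedless. It lay at 8.92, 7.91, 8.45 and 12.51 in AM, CS, MN and PSP in 2007 and at 9.89, 11.71, 11.49 and 10.81 in 2008. PSP had the highest value of 2007, and the median difference of the 6 genes there was 1.31, against -0.52 in AM, -0.81 in CS and -1.05 in MN. The part of seed tissue in the results below was not tested.

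Of 25 named pathogenesis-related proteins, 20 had a lower mean in 2007, as had all 8 terpene synthases, while the median difference of all named genes was -0.05. The study had picked 17 of the 25 for a difference between years. Of the other 8, 4 had a lower and 4 a higher mean. A PR1 gene differed by -5.81 on the log2 scale. Of 78 genes that fall during ripening, 72 had a higher mean, with 3.14 in a cytokinin dehydrogenase. With the 8 vineyard means, paired by vineyard (limma), none of the 29,542 probe sets (0% called) had an adjusted p below 0.05, and the smallest was 0.205. At an unadjusted p below 0.05, 2504 sets were higher in 2007 (8.48%) and 2460 lower (8.33%), together 4964 (16.8%). The 24 arrays, with the vineyard as a block and each triplicate as a random block, gave 2789 sets (9.44%) at an adjusted p below 0.05, of which 1058 were higher (3.58%) and 1731 lower (5.86%) in 2007. Of these, 2298 were also among the 4964. In that fit the arrays of a triplicate count as partly independent, and its count rested on vineyard CS. Without CS it was 4, without AM 608, without PSP 4332 and without MN 4947. It was 2188 without replicate A of MN in 2008 and 3050 without replicate A of AM in 2008. Below, the adjusted p of the 24 arrays is called the array-level adjusted p, and none of the 90 genes named by rule stayed below 0.05 in it without CS, where the lowest value was 0.0561.

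The difference had one sign in all 4 vineyards for 3993 sets that were higher (13.5%) and 3474 that were lower in 2007 (11.8%). For 364 of them (1.23%, higher) and 499 (1.69%, lower) the mean difference also exceeded 2-fold. The 4 means of one year lay wholly above those of the other for 2999 sets (10.2%), 1462 with higher levels (4.95%) and 1537 with lower levels in 2007 (5.2%). All 12 arrays of 2007 lay above all 12 of 2008 for 94 sets (0.318%) and below them for 169 (0.572%). Over all sets the median difference was 0.07, and it was 0.10 in AM, 0.12 in CS, 0.01 in MN and -0.02 in PSP. A gene name could be given to 5421 sets, through values printed by the study. Among these, 329 (6.07%) were higher and 771 (14.2%) lower at an unadjusted p below 0.05, and 222 (4.1%) were higher and 585 (10.8%) lower at the array level. Of the study's comparison of years in ripening berries, only genes that it lists as specific to 2006 and 2008 were used here, so the names lean to genes lower in 2007, and a gene counted below as not picked may still be in that comparison.

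The vineyards of 2007 were on average farther from each other than from those of 2008. Distance was measured as 1 minus Pearson's correlation over all sets. It averaged 0.0396 between means of different years and 0.0314 within a year, but the latter pools 0.0464 within 2007 (0.0192 to 0.0637) and 0.0163 within 2008 (0.0120 to 0.0187). The difference of 0.00829 between the pooled means was the highest over 35 splits of the 8 means into 4 and 4, a test that ignores the pairing by vineyard (exact permutation test, one-sided, p = 0.0286, the smallest possible). With the years swapped only within vineyards there are 8 splits, and the exact p was 0.125, the smallest that they allow. The distance of a vineyard from itself in the other year was 0.0339 in AM, 0.0510 in CS, 0.0231 in MN and 0.0419 in PSP. CS thus differed most between the years, and MN least. With 1 vineyard left out, the difference lay between 0.00183 (without CS, p = 0.3 by the exact permutation test) and 0.0130 (without MN, p = 0.1, the smallest that 10 splits allow).

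PR1 genes were among those with the largest negative differences. The PR1 gene VIT_03s0088g00710, a secreted protein that marks defense in plants, had levels of 5.24 in AM, 5.21 in CS, 6.85 in MN and 6.95 in PSP in 2007, and of 12.33, 13.47, 9.50 and 12.17 in 2008. All means of 2007 were low and none overlapped those of 2008, with MN the nearest. The difference was -5.81 ± 0.83 (moderated standard error of limma, n = 4 vineyards, adjusted p = 0.205 by limma, array-level adjusted p = 0.00139). Here and below, ± after a difference is this standard error, unless SD is named. Its variance is drawn toward that of all sets, so it does not give the spread between the vineyards. Only 4 of the 12 arrays of 2007 were above background, against 12 of 12 in 2008. With every value raised to the background of its array, the difference was -4.51. Single arrays did overlap, since they reached 8.10 in 2007 and went down to 7.37 in 2008, both in MN. Without replicate A of MN in 2008, the difference in MN was -1.62 in place of -2.65, and the means still did not overlap.

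Another 5 PR1 genes named here from the same cluster of identifiers were lower in all 4 vineyards. Except for VIT_03s0088g00690, which the study names, they were chosen for large differences with the same sign in all 4 vineyards. Their shared sign was thus set by that choice. VIT_03s0088g00700 lay at 5.61, 5.84, 6.51 and 7.07 in AM, CS, MN and PSP in 2007 and at 11.70, 13.33, 8.65 and 11.15 in 2008 (difference -4.95 ± 0.80, array-level adjusted p = 0.00345). VIT_03s0088g00780 differed by -4.61, VIT_03s0088g00810 by -4.01, VIT_03s0088g00690 by -3.85 and VIT_03s0088g00750 by -3.69. In each of them the 4 means of 2007 were below all means of 2008, also without replicate A of MN in 2008, though the difference of VIT_03s0088g00810 in MN was then -0.06 in place of -0.73. Near-identical PR1 copies may share probes, although the study reports assessing probe sets of gene families for specificity. Probe sequences were not checked here, so the 6 genes are not counted as 6 separate measurements.

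PR10 (VIT_05s0077g01530), an intracellular defense protein, showed how far the vineyards differed. Its level was 4.54 in AM, 4.68 in CS, 6.34 in MN and 6.19 in PSP in 2007, against 10.45, 12.31, 6.19 and 10.56 in 2008. It was higher in 2008 in 3 vineyards and nearly equal in MN, where the difference was 0.15, and 1.22 without replicate A of 2008. The mean difference was -4.44 ± 1.12 (array-level adjusted p = 0.0103), and 4 arrays of 2007 and 10 of 2008 were above background.

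**Figure D1:**
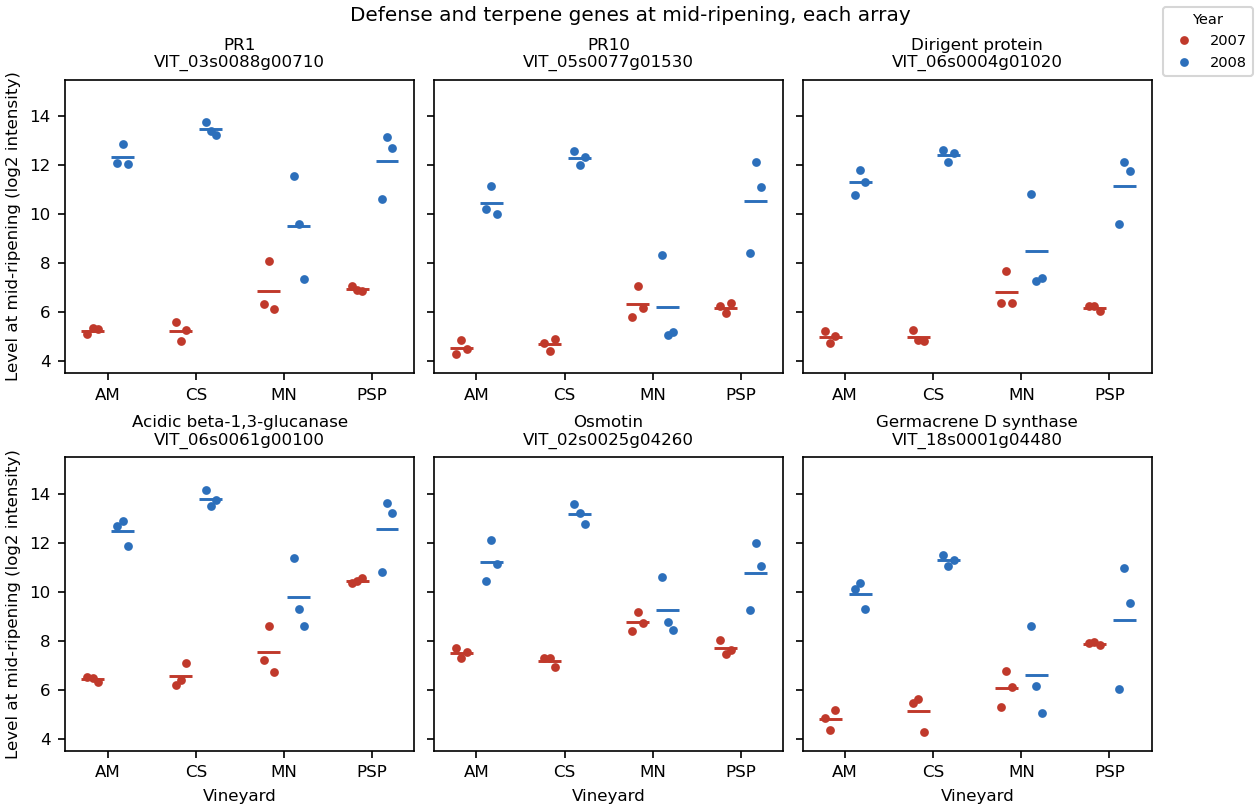
Levels (log2 intensity, y axis) of 6 defense and terpene genes at mid-ripening by vineyard (x axis). Each point is an array and each bar the mean of 3 arrays, in red for 2007 and blue for 2008. In AM and CS the years stand apart in all 6 genes, while in MN the arrays of 2008 spread widely and partly overlap those of 2007.

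Dirigent proteins guide the coupling of monolignols into lignans and lignin. VIT_06s0004g01020 had 4.99 in AM, 4.97 in CS, 6.80 in MN and 6.17 in PSP in 2007 and 11.30, 12.42, 8.49 and 11.17 in 2008. The difference was -5.11 ± 0.85 (array-level adjusted p = 0.00196), with no overlap of the means. Its neighbors VIT_06s0004g01010 (-5.01) and VIT_06s0004g01030 (-4.38) had their largest differences in CS, -7.40 and -6.56. In MN, the vineyard with the smallest differences, these rested on 1 array. Without replicate A of 2008 the difference in MN was -0.10 in place of -0.96 for VIT_06s0004g01010 and the level of VIT_06s0004g01030 in 2008 was 6.18 in place of 7.33, equal to that of 2007. The difference of VIT_06s0004g01020 in MN was then -0.53 in place of -1.69. For all 3, no more than 5 of the 12 arrays of 2007 were above background.

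Beta-1,3-glucanases hydrolyze callose and fungal glucans. The acidic isoform VIT_06s0061g00100 lay at 6.45, 6.56, 7.52 and 10.46 in AM, CS, MN and PSP in 2007 and at 12.47, 13.81, 9.77 and 12.55 in 2008 (difference -4.40 ± 0.89, array-level adjusted p = 0.00388). Here the means overlapped, since PSP of 2007 was above MN of 2008. VIT_06s0061g00120 had 7.63, 7.29, 7.28 and 8.96 in 2007 and 12.01, 12.73, 9.53 and 11.88 in 2008 (difference -3.75 ± 0.51), and its means did not overlap. Without replicate A of MN in 2008 they did, since MN of 2008 was then at 8.81, below PSP of 2007.

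A copper amine oxidase (VIT_05s0020g03280), an enzyme that oxidizes polyamines and releases hydrogen peroxide, was at 5.94, 5.13, 5.86 and 5.37 in AM, CS, MN and PSP in 2007 and at 10.32, 11.61, 6.87 and 10.07 in 2008. None of the 12 arrays of 2007 was above background, and 10 of 2008 were. It was at least 8.29-fold lower in 2007 when its values were raised to the background (array-level adjusted p = 0.00707 for the measured difference of -4.14). In MN the level of 2008 was 5.55 in place of 6.87 without replicate A, the difference there was then 0.31, and the means of the years overlapped. Osmotin VIT_02s0025g04260, an antifungal protein of the thaumatin family, lay at 7.50, 7.17, 8.76 and 7.69 in 2007 and at 11.23, 13.19, 9.26 and 10.77 in 2008 (difference -3.33 ± 0.77, array-level adjusted p = 0.00832). In MN its difference was -0.50, and 0.17 without replicate A of 2008, so the sign there rested on that array, as did the lack of overlap between the means. VIT_06s0004g02010, a gene with no annotation, was above background on 10 arrays of 2007 and 12 of 2008. Its level was 8.39 in AM, 7.88 in CS, 8.94 in MN and 10.08 in PSP in 2007 and 13.95, 14.80, 11.07 and 14.01 in 2008. Raising values to background moved its difference only from -4.64 ± 0.71 (array-level adjusted p = 0.00309) to -4.55. Its means did not overlap, but without replicate A of MN in 2008 that vineyard was at 9.89, below PSP of 2007.

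Not all defense genes differed. Of 25 named PR proteins, 15 were lower and 0 higher at an unadjusted p below 0.05 (8.33% and 8.48% over all sets, 14.2% and 6.07% of all named genes). At the array level 11 were lower (5.86% over all sets, 10.8% of all named genes). The median difference was -1.03, against 0.07 over all sets and -0.05 over all named genes. In 17 of them the study had picked the gene for a difference between years on these same arrays, which is no independent evidence, and their median was -2.44. The other 8 had a median of -0.04, with 3 lower. The acidic endochitinase VIT_15s0046g01570 lay at 9.39, 8.98, 10.36 and 10.34 in AM, CS, MN and PSP in 2007 and at 12.79, 12.54, 11.44 and 12.03 in 2008, without overlap. By contrast the osmotin VIT_02s0025g04280 had 14.53, 14.26, 14.60 and 14.55 in 2007 and 14.59, 14.57, 14.57 and 14.54 in 2008, and the chitinase VIT_05s0062g01320 stayed between 14.82 and 15.21 in all 8 means. These last 3 genes were chosen after their values were seen.

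Terpene synthases had their largest negative differences in AM and CS and the smallest in MN. All 8 named members had a lower mean in 2007 (median -2.38). Of these, 7 passed at an unadjusted p below 0.05 (87.5%, beside 8.33% over all sets and 14.2% of all named genes). At the array level 0 passed (5.86% over all sets, 10.8% of all named genes). The study counts 8 germacrene D synthases among its rising markers of 2008. This list and the marker list below may therefore share genes. By vineyard the median was -3.47 in AM, -4.45 in CS, -0.24 in MN and -1.24 in PSP. The median in MN was 0.57 without replicate A of 2008, and 6 genes then passed. The germacrene D synthase VIT_18s0001g04480 had 4.79 in AM, 5.12 in CS, 6.05 in MN and 7.88 in PSP in 2007 and 9.92, 11.29, 6.61 and 8.84 in 2008 (difference -3.21 ± 0.97, array-level adjusted p = 0.065). Its means overlapped, since PSP of 2007 exceeded MN of 2008, and in MN its difference of -0.56 became 0.45 without replicate A of 2008. The mean levels in AM, CS and MN of 2007 and in MN of 2008 were under array background. That background was 6.39 to 6.74 in MN of 2007 and 7.10 to 7.49 in MN of 2008. The sign in MN thus carries no order, and the size of the differences in AM and CS is not exact. VIT_18s0001g05450, another germacrene D synthase, differed by -3.02 ± 0.79 (array-level adjusted p = 0.0698). These synthases are close homologs, and probes of one may read another. The study reports assessing probe sets of gene families for specificity, which was not checked here.

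Stilbene synthases split the vineyards. The 6 named members had a median difference of -1.84. At an unadjusted p below 0.05, 3 were lower (50%, beside 8.33% over all sets and 14.2% of all named genes). At the array level 1 was lower (5.86% over all sets, 10.8% of all named genes). The median was -2.87 in AM, -4.47 in CS, -0.36 in MN (0.15 without replicate A of 2008, when 2 genes passed) and 0.11 in PSP. VIT_16s0100g01200 lay at 9.41, 7.18, 10.74 and 12.30 in AM, CS, MN and PSP in 2007 and at 12.61, 12.97, 11.40 and 12.17 in 2008 (difference -2.38 ± 0.91, array-level adjusted p = 0.0218). Its level in PSP was as high in 2007 as in 2008, and CS had the lowest value. Stilbene synthase 3 (VIT_16s0100g00950) followed the same pattern, with -2.88 in AM, -5.88 in CS, -0.64 in MN and 0.63 in PSP. In none of the 6 genes was the sign the same in all 4 vineyards. The study's comparison of years in ripening berries was used only in part, and the study describes stilbene synthases in it, so these 6 genes are not independent of its choice. It also names stilbene synthases among its rising markers of 2008, so this list and the marker list below may share genes.

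Among 22 phenylpropanoid and lignin genes, 8 were lower (36.4%, beside 14.2% of all named genes) at an unadjusted p below 0.05. Only 1 was higher (4.55%, beside 6.07%), and the median was -0.71. The 3 dirigent genes are among the 12 that the study had picked for a difference between years (median -1.36). The other 10 had a median of -0.07, and none passed. Flavonoid genes, whose products include anthocyanins and tannins, were near 0 as a list (14 genes, median -0.11, 2 higher and 3 lower). Their shares were 14.3% higher and 21.4% lower, beside 6.07% and 14.2% of all named genes. A flavonol synthase (VIT_18s0001g03470) was at 9.15, 8.77, 6.36 and 6.09 in AM, CS, MN and PSP in 2007 and at 9.10, 9.19, 7.79 and 8.42 in 2008, with the lower values of 2007 in MN and PSP and near-equal ones in AM. An anthocyanidin 5,3-O-glucosyltransferase (VIT_18s0041g01080) was higher in all 4 vineyards, at 8.49 to 9.00 in 2007 and 7.74 to 8.15 in 2008 (difference 0.86 ± 0.21, array-level adjusted p = 0.043).

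Genes that rise with ripening placed the mid-ripening berries of 2007 near veraison of 2008, though many of these genes were then near or under array background. The study lists genes that rise or fall from veraison to harvest in all its vineyards of 2008. Of these, 108 rising and 78 falling genes could be named here, 157 of them through mean levels by stage in 2008. They were chosen on arrays that include those of 2008 used here. Of the rising markers, 67 were lower (62%) and 3 higher (2.78%) in 2007 at an unadjusted p below 0.05. Over all sets these shares were 8.33% and 8.48%, and among all named genes 14.2% and 6.07%. At the array level 41 were lower and 1 higher, and the median difference was -1.22. Of the 83 among them that are not in the study's lists of differences between years as used here, 46 were lower and 3 higher, with a median of -1.03. The median was -1.47 in AM, -2.17 in CS, -0.67 in MN and -0.78 in PSP. Of the falling markers, 39 were higher and 0 lower at an unadjusted p below 0.05, 36 were higher at the array level, and the median was 0.80, with 0.16 in AM, 1.56 in CS, 0.83 in MN and 0.76 in PSP.

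Each marker was also placed on its own course of 2008, with the mean of the 4 vineyards at veraison as 0% and at harvest as 100%. For the 107 rising markers whose course spans at least 1 on the log2 scale, the median place at mid-ripening of 2007 was -1.9% in AM, 1.0% in CS, -7.5% in MN and 10.5% in PSP. In 2008 it was 51.0%, 73.3%, 16.7% and 44.1%, with MN the lowest, and the years did not overlap. Without replicate A, however, MN of 2008 was at 7.9%, below PSP of 2007. At harvest of 2007 it was 38.8% in AM, 53.0% in CS, 49.9% in MN and 54.0% in PSP, a range that overlaps that of mid-ripening in 2008. At mid-ripening of 2007 the median levels of the rising markers were 6.86 in AM, 6.71 in CS, 6.48 in MN and 7.56 in PSP. Those of AM and CS were under the background of all their arrays, and that of MN was within its range. Levels under background carry no order, so the places near 0% are not exact. The 78 falling markers were at 30.7%, 23.8%, -3.0% and 16.3% in AM, CS, MN and PSP at mid-ripening of 2007 and at 34.7%, 67.7%, 22.6% and 35.4% in 2008. In each vineyard of 2007 they were further along than the rising markers, and AM and CS of 2007 lay above MN of 2008. In 2006 the rising markers were at 68.3%, 81.3%, 47.9% and 21.7% at mid-ripening. The part of the ripening stage in the differences of other genes was not tested.

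**Figure D2:**
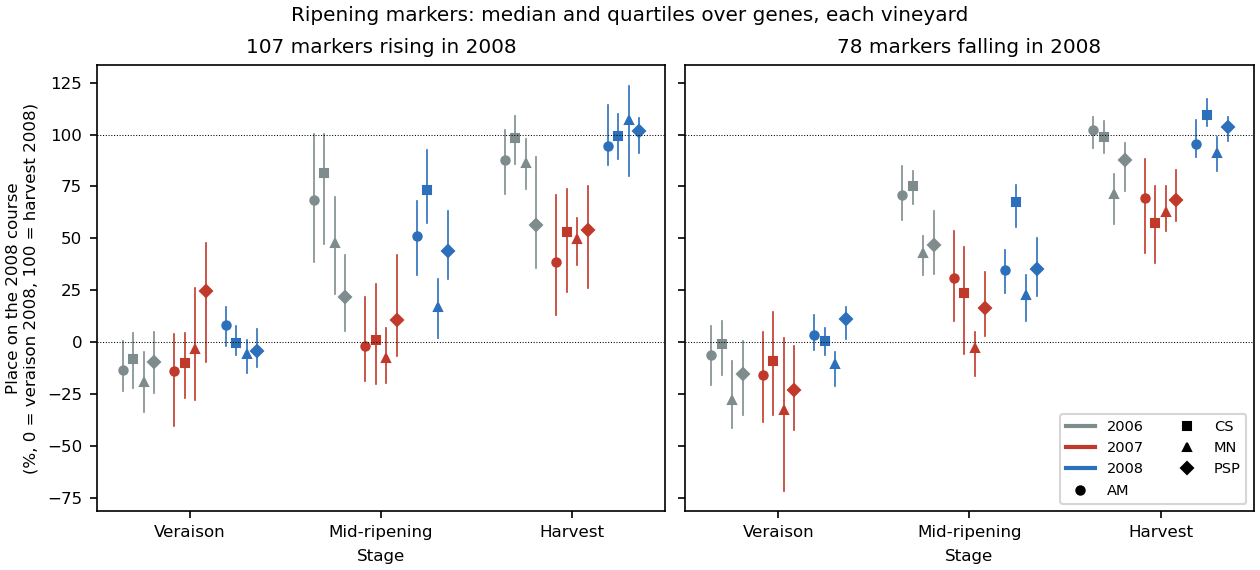
Place of the ripening markers (y axis, percent of the course from veraison to harvest of 2008) at 3 stages (x axis), for 107 rising markers on the left and 78 falling ones on the right. Symbols are medians over genes and lines reach from the lower to the upper quartile, per vineyard and year. At mid-ripening the rising markers of 2007 (red) lie between -7.5% and 10.5% and those of 2008 (blue) between 16.7% and 73.3%, the lowest of which (MN) is 7.9% without 1 of its arrays. In AM and CS of 2007 the median level of the rising markers at mid-ripening was under array background.

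Other markers that rise in 2008 and were lower in 2007 cover several functions. CYP86A2 (VIT_02s0025g03320), a fatty acid hydroxylase of cutin synthesis, was at 10.18, 10.49, 7.86 and 10.26 in AM, CS, MN and PSP in 2007 and at 11.86, 11.49, 10.86 and 10.53 in 2008 (difference -1.49 ± 0.42, array-level adjusted p = 0.0101). MN of 2007 stood below the rest. A pectinesterase (VIT_15s0048g00510), which demethylates wall pectin, was at 5.59 to 6.89 in 2007 and 6.81 to 9.95 in 2008, with 4 and 10 arrays above background, and passed only without adjustment (difference -2.11 ± 0.42, array-level adjusted p = 0.0685).

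Among the named genes with one sign in all 4 vineyards and an array-level adjusted p below 0.05, cytokinin dehydrogenase 5 (VIT_18s0001g13200), one of the falling markers, had the largest difference in favor of 2007. It lay at 11.28 in AM, 12.58 in CS, 12.44 in MN and 11.83 in PSP in 2007 and at 10.58, 7.79, 8.89 and 8.30 in 2008. All means of 2007 were above all means of 2008, and AM was the vineyard where the years came closest. The difference was 3.14 ± 0.60 (8.82-fold, adjusted p = 0.206 by limma, array-level adjusted p = 0.00129). All 24 arrays were above background, and single arrays overlapped slightly, from 10.92 upward in 2007 and up to 11.01 in 2008.

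CYP90B1 (DWF4, VIT_04s0023g01640) is a rate-limiting enzyme of brassinosteroid synthesis in Arabidopsis. It had 9.92, 11.78, 11.05 and 11.72 in AM, CS, MN and PSP in 2007 and 8.00, 8.14, 10.26 and 9.24 in 2008 (difference 2.21 ± 0.43, array-level adjusted p = 0.00451). Each vineyard was higher in 2007, but AM of 2007 was below MN of 2008.

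The 3 polyphenol oxidases named oxidize phenolics to quinones and are falling markers, as DWF4 is. They were chosen for large differences in favor of 2007 with the same sign in every vineyard. Their shared direction was thus set by that choice, and polyphenol oxidases were not counted as a family. VIT_00s0480g00070 was at 10.14, 9.97, 10.57 and 11.02 in AM, CS, MN and PSP in 2007 and at 8.07, 6.76, 9.47 and 8.63 in 2008 (difference 2.19 ± 0.34, array-level adjusted p = 0.0103). The means did not overlap in this gene, nor in VIT_10s0116g00560 (2.09 ± 0.40, array-level adjusted p = 0.014) or VIT_00s0480g00080 (1.76 ± 0.27, array-level adjusted p = 0.0211). The difference was largest in CS (3.21, 3.24 and 2.38) and smallest in MN (1.09, 0.73 and 0.95).

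**Figure D3:**
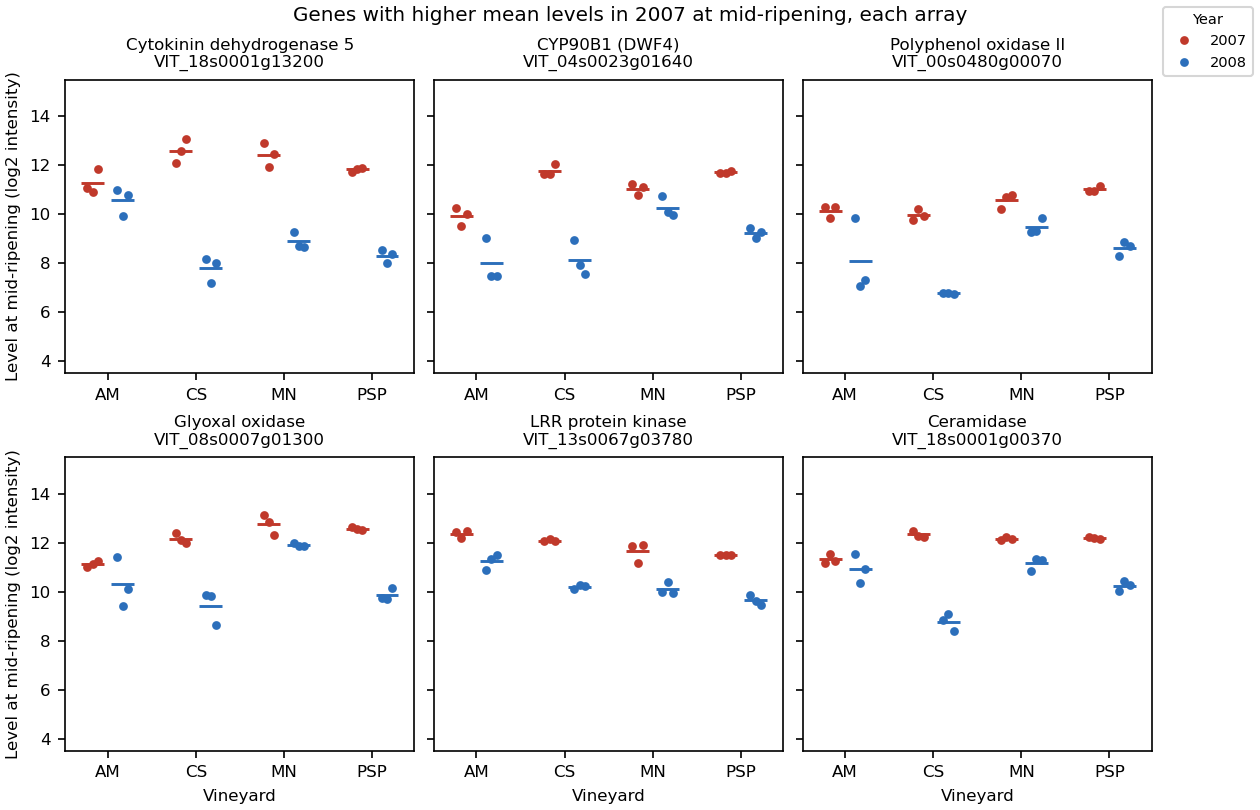
Levels (log2 intensity, y axis) of 6 genes with higher mean levels in 2007, by vineyard (x axis). Each point is an array and each bar the mean of 3 arrays, in red for 2007 and blue for 2008. The mean of 2007 is above that of 2008 in each vineyard for all 6 genes, and CS shows the widest gap in all of them.

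Further genes with higher levels in all 4 vineyards of 2007 belong to signaling, transport and degradation functions. The leucine-rich repeat protein kinase VIT_13s0067g03780 was at 12.37, 12.10, 11.66 and 11.51 in AM, CS, MN and PSP in 2007 and 11.25, 10.21, 10.12 and 9.66 in 2008 (difference 1.60 ± 0.21, array-level adjusted p = 0.000411). The study had picked it for a difference between years at veraison. A beta-1,3-glucanase of another type (VIT_00s0780g00020) was at 10.44 to 10.98 in 2007 and 8.54 to 9.77 in 2008 (difference 1.46 ± 0.30, array-level adjusted p = 0.00122). Neither gene had overlapping means.

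Glyoxal oxidase VIT_08s0007g01300, a copper enzyme, lay at 11.14, 12.18, 12.78 and 12.58 in AM, CS, MN and PSP in 2007 and at 10.32, 9.44, 11.92 and 9.87 in 2008 (difference 1.78 ± 0.40, array-level adjusted p = 0.0141). Ceramidase VIT_18s0001g00370, which splits the sphingolipid ceramide, was at 11.33, 12.35, 12.17 and 12.19 in 2007 and 10.95, 8.78, 11.17 and 10.25 in 2008 (difference 1.72 ± 0.49, array-level adjusted p = 0.00516). The years overlapped in glyoxal oxidase. Accelerated cell death 1 (VIT_06s0004g00640), an oxygenase that opens the chlorophyll ring in Arabidopsis, had 8.22, 8.95, 9.81 and 9.90 in 2007 and 7.60, 6.34, 8.45 and 7.94 in 2008 (difference 1.64 ± 0.33, array-level adjusted p = 0.0118). Its level in AM of 2007 was below that of MN in 2008. The transcription factor MYB102 (VIT_00s0203g00070) was higher by 1.60 ± 0.35 (array-level adjusted p = 0.0158), the serine carboxypeptidase VIT_03s0091g01290 by 1.66 ± 0.45 (array-level adjusted p = 0.0103), the sulfate transporter VIT_05s0020g03970 by 1.46 ± 0.43 (array-level adjusted p = 0.00729) and the aspartyl protease VIT_17s0000g03990 by 1.41 ± 0.39 (array-level adjusted p = 0.0258). All of these but the aspartyl protease are falling ripening markers of 2008, as are glyoxal oxidase, ceramidase and ACD1.

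Ribosomal protein genes were lower in AM and CS, by less than 2-fold as a list. Of 115 named members, 100 had a lower mean in 2007 (median -0.44). At an unadjusted p below 0.05, 36 were lower (31.3%, beside 14.2% of all named genes). At the array level 42 were lower (beside 10.8% of all named genes), and 0 were higher in either. By vineyard the median was -0.76 in AM, -0.76 in CS, -0.01 in MN and -0.16 in PSP. The largest difference was that of RPS30 of the small subunit (VIT_11s0016g02690), at 11.25, 11.35, 12.94 and 12.79 in AM, CS, MN and PSP in 2007 and 13.53, 13.58, 13.55 and 13.33 in 2008 (difference -1.41 ± 0.37, array-level adjusted p = 0.00451). The 4 means of 2008 lay within 13.33 to 13.58, and AM and CS of 2007 stood lowest. RPS21 (VIT_05s0020g01480) repeated this order, at 9.67, 9.50, 11.57 and 10.88 against 11.61, 11.53, 11.70 and 11.45. AM and CS of 2007 were also the arrays with the highest random-probe background, and the part of that background in these differences was not tested.

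Photosynthesis genes, markers of green tissue, were mostly higher in 2007. Of 9 named members, 8 had a higher mean (median 0.76). At an unadjusted p below 0.05, 5 were higher (8.48% over all sets, 6.07% of all named genes). At the array level 2 were higher (3.58% over all sets, 4.1% of all named genes). The study had picked 6 of the 9 for a difference between years (median 0.47), and 4 of these were higher at an unadjusted p below 0.05. Of the other 3 (median 1.03), 1 was. Photosystem II protein D2 (VIT_11s0103g00110), a chloroplast reaction center subunit, was at 10.50, 11.09, 11.90 and 12.52 in AM, CS, MN and PSP in 2007 and at 10.13, 10.21, 10.76 and 10.75 in 2008 (difference 1.04 ± 0.26, array-level adjusted p = 0.235). The plastocyanin domain protein VIT_09s0018g00520 was lower in AM (-0.90) and higher in CS (1.62), MN (1.71) and PSP (1.91). Over the list, AM showed the smallest median (0.16) and MN the largest (1.13).

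Growth and cell wall genes held single strong differences and small medians. Tubulin beta-6 (VIT_09s0002g09010) was at 7.68 to 9.08 in 2007 and 6.74 to 7.21 in 2008 (difference 1.39 ± 0.31, array-level adjusted p = 0.0203), though its difference was -0.04 when its probes were summarized by their median. Histone H4 (VIT_06s0004g03890) was at 8.83, 9.09, 9.88 and 10.52 in AM, CS, MN and PSP in 2007 and 11.47, 11.62, 10.81 and 10.64 in 2008, lower by far in AM and CS and nearly alike in PSP. The alpha-expansin VIT_06s0004g00070, a wall-loosening protein, was lower in AM (-1.26) and higher in CS (2.55), MN (2.31) and PSP (2.06). The medians of 9 cellulose synthases (0.29), 16 xyloglucan endotransglucosylase/hydrolases (0.21), 8 expansins (-0.12) and 20 pectin-modifying enzymes (-0.19) were small beside these. Of the 53 genes in those lists, 2 were higher and 5 lower at an unadjusted p below 0.05, beside 6.07% and 14.2% of all named genes. The 5 were all pectin-modifying enzymes (25% of that list).

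Of 81 transcription factors, 4 were higher (4.94%) and 13 lower (16%) at an unadjusted p below 0.05 (median -0.07), beside 6.07% and 14.2% of all named genes. NAC25 (VIT_00s0375g00040) was at 10.72, 10.07, 9.92 and 10.79 in AM, CS, MN and PSP in 2007 and at 12.41, 12.25, 11.55 and 11.02 in 2008 (difference -1.43 ± 0.33, array-level adjusted p = 0.00213), with no overlap and the smallest difference in PSP. Of 57 receptor-like kinases, 7 were higher (12.3%) and 14 lower (24.6%, median -0.23), among the latter a kinase annotated as CLAVATA1 (VIT_04s0008g00310), at 5.90 to 6.94 in 2007 and 7.69 to 9.07 in 2008. The hormone lists, 30 ethylene and AP2/ERF genes (median -0.01), 33 auxin genes (-0.22) and 11 abscisic acid genes (0.06), stayed near the median of all sets. Of these 74 genes, 3 were higher and 9 lower. By list the shares higher and lower were 3.33% and 16.7%, 3.03% and 12.1%, and 9.09% and 0%, beside 6.07% and 14.2% of all named genes. The cell wall apoplastic invertase VIT_09s0002g02320, which splits sucrose outside the cell, was lower in all 4 vineyards (8.77 to 9.68 against 9.90 to 11.13, difference -1.43 ± 0.32, array-level adjusted p = 0.0169).

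Heat shock proteins and chaperones had a median near 0 at this stage. Of 64 members, 5 were higher (7.81%) and 8 lower (12.5%) at an unadjusted p below 0.05, and the median was 0.03. Among all named genes these shares were 6.07% and 14.2%. The study had picked 46 of the 64 for a difference between years, and these held all 8 lower calls. The DnaJ chaperone VIT_01s0011g04820 had the largest difference among them, at 10.47, 12.24, 12.25 and 12.61 in AM, CS, MN and PSP in 2007 and 11.39, 13.95, 13.80 and 13.76 in 2008 (-1.33 ± 0.21, array-level adjusted p = 0.000411), and AM was low in both years. The 74 genes that the study lists as constitutive in 2008 had a median of -0.02, and 3 were higher (4.05%) and 0 lower. The largest differences in that list, in VIT_06s0009g00940 (0.62) and VIT_18s0001g03170 (0.66), came from genes that were above background on none of the 24 arrays.

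**Figure D4:**
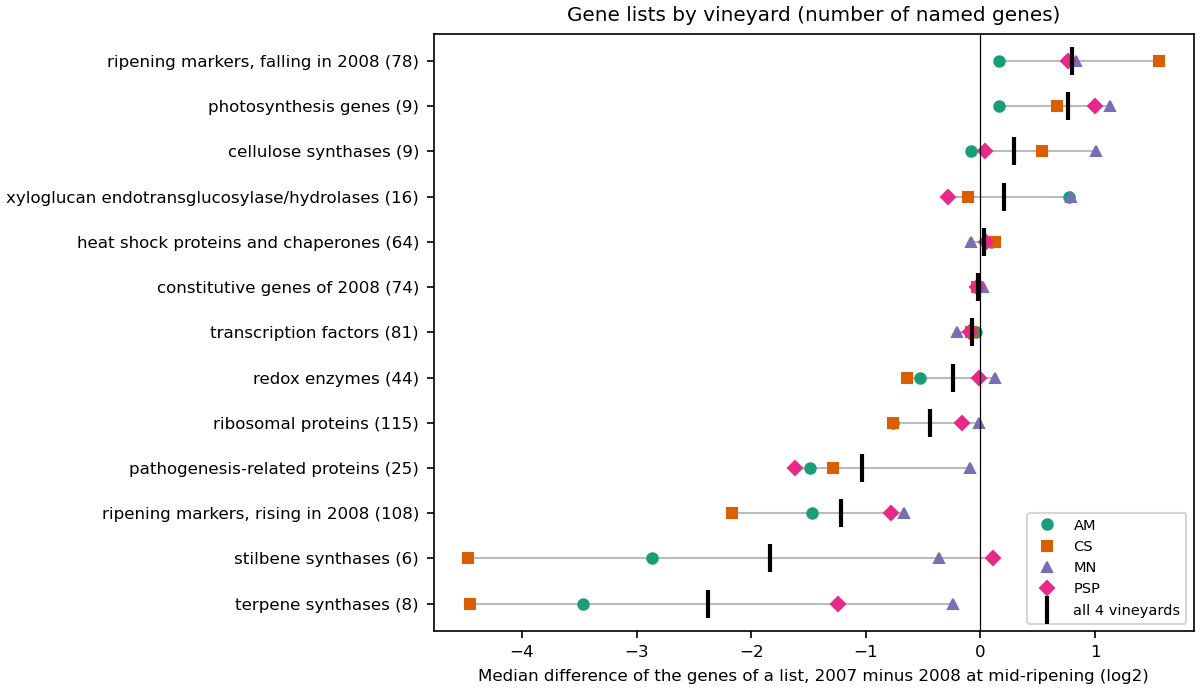
Median difference of 2007 minus 2008 (x axis, log2) over the named genes of 13 lists (y axis, number of genes in parentheses). Colored symbols are the 4 vineyards and black bars the median of the mean differences. The medians run from -2.38 for terpene synthases to 0.80 for falling ripening markers, and MN lies nearest to 0 of the 4 vineyards in the terpene synthase, pathogenesis-related and ribosomal lists. Lists may share genes.

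Levels of 2006 and of the other vineyards of 2008 gave a scale for these differences. In the 4 vineyards of 2006 the PR1 gene VIT_03s0088g00710 lay between 9.53 and 14.13, and in 7 further vineyards of 2008 between 7.68 and 12.79, with no value as low as the highest of 2007 (6.95). For cytokinin dehydrogenase 5 (VIT_18s0001g13200) these ranges were 6.79 to 9.30 and 7.99 to 10.57, all below the lowest mean of 2007 (11.28). The stilbene synthase VIT_16s0100g01200 was at 11.43 to 13.22 in 2006 and at 9.18 to 12.88 in the other vineyards of 2008, so that CS of 2007 (7.18) was below all of them and AM (9.41) was within the range of 2008. When 2007 was compared with those 7 vineyards in place of its own, 3017 sets passed the adjusted threshold (1300 higher, 1717 lower in 2007). With the 4 means of 2006 added to the paired fit, 30 did (5 higher, 25 lower).

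The difference between the years was also followed through the stages of the same vineyards. At veraison, 570 sets (1.93%) had an adjusted p below 0.05, 265 higher (0.897%) and 305 lower (1.03%) in 2007, and at harvest 1085 (3.67%), 511 higher (1.73%) and 574 lower (1.94%). Of the 265, 234 had the same sign at mid-ripening, and of the 305, 269. Their median difference was 2.07 and -2.23 at veraison and 0.59 and -0.57 at mid-ripening. Of the sets called at harvest, 452 of 511 and 525 of 574 had the same sign, with medians of 0.50 and -0.83 at mid-ripening. A test of the difference between stages called 62 sets against veraison (0.21%), 27 with a higher (0.0914%) and 35 with a lower difference at mid-ripening (0.118%), and 0 against harvest (smallest adjusted p = 0.065 by limma, with 4975 sets, 16.8%, at an unadjusted p below 0.05). The count of 62 was 0 when any 1 vineyard was left out or when probe set values were quantile normalized. It was 1 without replicate A of MN in 2008 and 190 without replicate A of AM in 2008.

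No difference of PR1 (VIT_03s0088g00710) between the years was detected at veraison, where it lay at 6.80 ± 1.67 in 2007 and 7.36 ± 0.77 in 2008 (SD, n = 4 vineyards, adjusted p = 0.759 by limma). At harvest it was at 10.43 ± 1.33 and 13.59 ± 0.54 (adjusted p = 0.0193). At mid-ripening its mean was 6.06 ± 0.97 in 2007 and 11.87 ± 1.68 in 2008, and its change of difference from veraison, -5.25, missed the threshold (adjusted p = 0.0703 by limma). The dirigent gene VIT_06s0004g01020 differed by -0.21 at veraison and by -5.11 at mid-ripening, and this change of -4.90 passed the test between stages (adjusted p = 0.0491 by limma), but not without replicate A of MN in 2008 (-4.61, adjusted p = 0.0778). Cytokinin dehydrogenase 5 (VIT_18s0001g13200) was higher in 2007 by 3.02 at veraison (adjusted p = 0.0273), 3.14 at mid-ripening and 1.96 at harvest (adjusted p = 0.117), and no difference between stages was detected (0.12 against veraison, adjusted p = 0.953).

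**Figure D5:**
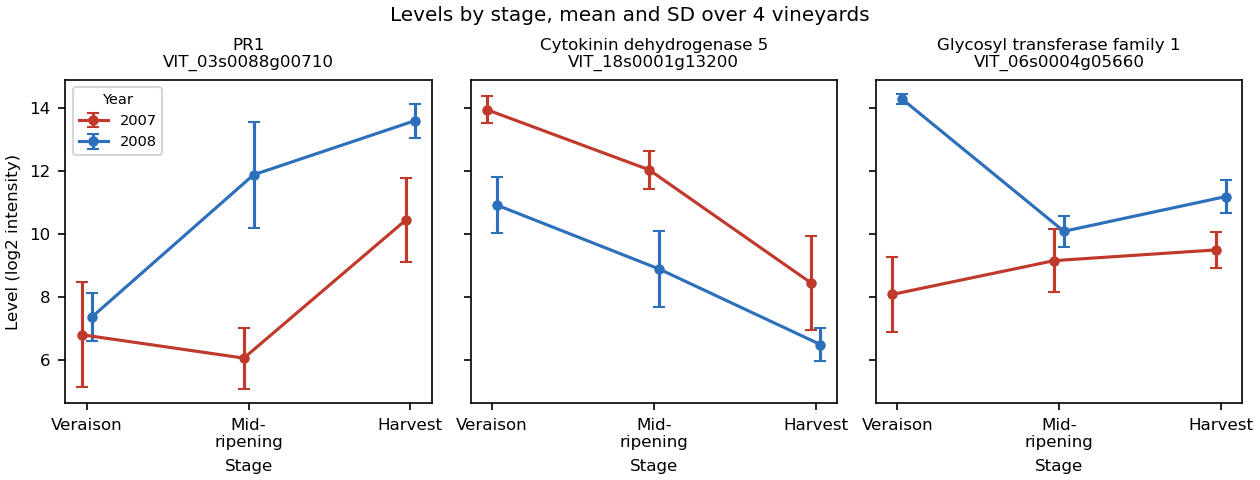
Levels (y axis, log2 intensity) of PR1, cytokinin dehydrogenase 5 and a glycosyl transferase at veraison, mid-ripening and harvest (x axis) in 2007 (red) and 2008 (blue). Points are means and error bars SDs over 4 vineyards. PR1 stands apart from mid-ripening on, the dehydrogenase is higher in 2007 at all stages, and the glycosyl transferase stands apart most at veraison.

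The largest change in the other sense was that of a family 1 glycosyl transferase (VIT_06s0004g05660), a class of enzymes that attach sugars to small molecules. It lay at 8.08 in 2007 and 14.27 in 2008 at veraison, and at 9.15 ± 0.99 and 10.08 ± 0.50 (SD, n = 4) at mid-ripening, so that its difference went from -6.19 to -0.93 (change 5.26, adjusted p = 0.0335 by limma). In AM of 2008 replicate A read 14.03, and the other 2 arrays 9.36 and 8.90. Without it the mid-ripening difference was -0.52 in place of -0.93 and the change 5.66 (adjusted p = 0.0392). BZIP53 (VIT_07s0005g01450), a transcription factor, went from -2.83 to -0.31 (change 2.52, adjusted p = 0.0491 by limma), and its mid-ripening difference was -0.15 without the same array (change 2.68). The lipoxygenase VIT_14s0128g00780, which oxidizes fatty acids, went from 1.57 at veraison to -1.01 at mid-ripening (change -2.58, adjusted p = 0.0491), with 9.10 ± 0.45 in 2007 and 10.12 ± 0.41 in 2008 at mid-ripening. The monooxygenase VIT_04s0044g00220 went from 2.35 to -1.42, and the ring domain ligase RGLG2 (VIT_00s0780g00040) from 1.37 to -2.31. The medians of some lists were farther from 0 at veraison. They were 1.82 for cellulose synthases, 1.99 for xyloglucan endotransglucosylase/hydrolases and 0.94 for heat shock proteins, and at mid-ripening 0.29, 0.21 and 0.03. These lists are made up mostly of genes that the study picked for a difference between years, and the change of a list was not tested.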

How the data were processed

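The authors deposited fluorescence intensity values per probe for each array, quantile normalized over 171 arrays; the submitters' notes name RMA. No background was subtracted from them here. The 117,999 gene probes were regrouped into 29,542 probe sets by their numbering (4 probes of runs of 10), and the log2 of the mean intensity was averaged over triplicates. Names came from matching probe set profiles to values printed in the study's supplements (5421 of 5567 listed genes; a separate rule for 205 genes was right in 26 of 26 checks). The members and lists were chosen with earlier results of these data known.

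Years were compared with limma 3.58.1 in R 4.3.3 (statmod 1.5.0), paired by vineyard, with Benjamini-Hochberg adjustment over all sets. The interaction with stage used the difference of differences per vineyard. Genes were to be named if largest among those past the threshold. As none passed, the 15 largest per direction with one sign in all 4 vineyards and an array-level adjusted p below 0.05 were taken, a choice made after values were seen, besides the largest members of lists, the genes the study names and, per direction, 5 with the largest interaction. Groups follow the source labels, with which the titles of 2 arrays of the series disagree. The fits were tested on simulated data. Distances and permutations used Python 3.11.15 with numpy 2.4.6, pandas 2.3.3 and scipy 1.17.1. Alternatives changed normalization, probe summary, filters, blocks and the vineyards and replicates left out.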

Additional observations from a re-analysis of the deposited data

Results flagged for a closer look

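Of 180 groups of 4 vineyard means tested by Dixon's ratio, 6 held a mean far from the others, and chance alone gives about 1 in 20. In 2007, PSP was high in the unannotated gene VIT_09s0002g02970 (ratio 0.86, 7.24 against 6.21 to 6.35) and in the invertase VIT_09s0002g02320 (0.87, 9.68 against 8.77 to 8.88). MN of 2007 was low in CYP86A2 (VIT_02s0025g03320, 0.881, 7.86 against 10.18 to 10.49) and high in xyloglucan endotransglucosylase/hydrolase 15 (VIT_05s0062g00250, 0.868, 13.58 against 12.15 to 12.34). In 2008, AM was low in the DnaJ chaperone VIT_01s0011g04820 (0.926, 11.39 against 13.76 to 13.95), and MN was high in the glucosyltransferase VIT_18s0041g01080 (0.831, 8.15 against 7.74 to 7.81).

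The test for a change of the difference between 2007 and 2008 from veraison to mid-ripening called 26 of the 5421 named genes. Over all 29,542 sets it called 62 (0.21%), and 0 without any 1 vineyard or with quantile normalization. Among the 90 genes chosen by rule, 11 passed (limma, adjusted p of 0.0335 for VIT_06s0004g05660 and 0.0491 for the other 10). The rule took 5 genes per direction by the size of this change. The change was upward by 5.26 in VIT_06s0004g05660, 3.73 in VIT_11s0016g02980, 2.92 in the lysine decarboxylase VIT_18s0001g00210, 2.75 in the kinase VIT_01s0026g01870 and 2.52 in VIT_07s0005g01450. It was -4.9 in the dirigent gene VIT_06s0004g01020, -3.77 in VIT_04s0044g00220, -3.68 in VIT_00s0780g00040, -3.35 in VIT_15s0021g01260, -3.11 in the ankyrin repeat gene VIT_04s0008g03530 and -2.58 in VIT_14s0128g00780. In the 5 genes with an upward change, the difference at veraison was between -6.19 and -2.83. Without replicate A of MN in 2008, the adjusted p of VIT_06s0004g05660 was 0.0345 and that of the other 4 with an upward change was 0.0569. Without replicate A of AM in 2008, the mid-ripening difference was -0.65 in place of -0.91 in VIT_11s0016g02980 and -0.54 in place of -0.81 in VIT_18s0001g00210, and the adjusted p of all 5 upward changes was 0.0392.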

How the results depend on the processing

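The count of 0 sets for 2007 against 2008 became 2789 with 24 arrays and the triplicate as a random block, 2459 with the replicate block, 2644 with the slide as a random block, 30 with 2006 added, 3017 against the 7 other vineyards of 2008, and 728 by the methods' paired t-test without adjustment (0 after it). In the 24-array fit, leaving out 1 vineyard gave 4 to 4947. That fit gave 2188 without replicate A of MN in 2008 and 3050 without replicate A of AM in 2008. All other settings gave 0. Limma-trend, the 24-array fits without a vineyard, values raised to background and the fits without replicate B of CS in 2007 or replicate A of MN or AM in 2008 were chosen after seeing the data. With median polish, 39.9% of sets at an unadjusted p below 0.05 were higher in 2007 (1813 against 2732), in place of 50.4%. Arrays with the same replicate letter share only a letter, since their deviations correlated at -0.14 to 0.29. The 62 sets of the interaction with veraison became 0 with quantile normalization, 174 with median polish, 197 with 50 added, 130 for sets above background on 12 arrays, 108 for sets above the median level, and 0 to 190 with a replicate, vineyard or single array left out. The 0 sets of the interaction with harvest became 87 above the median level. The distance between years lay between 0.00183 and 0.013 with a vineyard left out, with 10 splits and no p below 0.1. Of 90 named genes, 2 changed sign in a setting: VIT_06s0009g02590 was at 0.31 against the 7 other vineyards, and VIT_09s0002g09010 at -0.04 with the median of probes. The cause of these changes was not tested. The number of arrays and vineyards limits the precision, and levels under the random-probe background carry no order.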

Other observations

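The following 3 genes had their highest level of the 8 means in vineyard PSP of 2007, and were chosen after their values were seen. The class IV chitinase VIT_05s0094g00350 was at 13.99 in PSP and at 10.62, 10.09 and 11.21 in AM, CS and MN of 2007, and at 10.97 to 11.70 in 2008. A gene of the seed storage and lipid transfer family (VIT_14s0108g00520) was at 11.60 in PSP against 7.63 to 7.79 in the other vineyards of 2007, and at 8.22 to 10.12 in 2008. The mitochondrial chaperone BCS1 gene VIT_01s0010g02840 was at 10.90 in PSP against 8.27 to 9.33, and at 8.01 to 8.59 in 2008. PSP of 2007 also had the lowest random-probe background (5.80 to 6.18) and the largest mean distance to the other vineyards of its year (0.0548).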
